A study of Mus musculus with 6 samples.

Results

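Expression of 10 genes that encode enzymes adding acetyl groups to histones or removing them was followed in mouse embryonic stem cells that had spent 2 days in a neural differentiation medium while Geminin was or was not knocked down. The genes were the acetyltransferases Ep300, Crebbp, Kat2a, Kat2b and Kat5 and the deacetylases Hdac1, Hdac2, Hdac3, Hdac6 and Sirt1. Every probe set annotated to exactly 1 of these symbols was taken, which gave 20 of the 45037 probe sets on the array. All 20 were among the 31526 probe sets bright enough to be tested, those with a mean signal above 20.1. Each gene had at least 1 probe set, and Crebbp had the most with 4. Probe sets ending in _s_at hold probes that can match more than 1 transcript, and levels are not compared between probe sets.

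The cells were derivatives of the established line E14TG2a, of 129P2 background, cultured in serum-free N2B27 medium, in which such cells become neural. They held an inducible microRNA-embedded hairpin (shRNAmir) against Gmnn, the Geminin gene, which is silent until doxycycline (Dox) is added, and controls carried it as well. In each of 3 independent experiments a culture given 500 ng of Dox, as the labels state the amount (GemKD), was set beside an uninduced culture of the same line (control), so each group had 3 Affymetrix Mouse Genome 430 2.0 arrays. The hairpin was shRNAmir 11 in experiments 1 and 3, and shRNAmir 9, in another line, in experiment 2, so hairpin and line cannot be told apart. Every GemKD culture also had Dox and no control did, so an effect of Dox and an effect of the knockdown cannot be told apart either. The labels do not say whether a line was a single clone.

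Histone acetyltransferases (HATs) move an acetyl group from acetyl-CoA to lysines of histone tails, which loosens chromatin and is read by bromodomain proteins. Histone deacetylases (HDACs) take the group off again, mostly within corepressor complexes, and sirtuins do so with NAD. In embryonic stem cells the balance of both bears on keeping developmental genes accessible and on leaving pluripotency. Geminin binds the replication licensing factor Cdt1, and also interacts with regulators of chromatin and transcription. The comparison of GemKD with control asks here whether the mRNAs of the acetylating and deacetylating enzymes themselves differed.

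Gmnn, measured by 1417506_at, was at 27.6%, 48% and 36.7% of its control signal in the GemKD cultures of experiments 1, 2 and 3, so the arrays went the way of their labels. In limma's test it passed with the experiment as a block (adjusted p = 4.03e-04) and not without (0.296). Median signals lay between 59.3 and 60.9 on the 6 arrays. Some of the neural markers differed in experiment 3. The mean signal of Sox1 was 2318 over both arms of experiments 1 and 2 but 550 over those of experiment 3, and that of Pax6 was 757 and 146.4. Zic1 averaged 317.1 and 169.4, and Sox2, which pluripotent cells share, 5862 and 5183 (log2 difference -0.18). The neural progenitor marker Nes did not follow, with 254.8 and 273.8 (log2 difference 0.10, adjusted p = 0.523). The naive pluripotency factor Nanog averaged 2032 and 314.8, and the pluripotency marker Zfp42 4287.9 and 1868.5. The epiblast marker Fgf5 averaged 126.9 and 620.5, while the pluripotency factor Pou5f1 stayed at 7509 and 7371. Markers of other lineages had highest signals of 43.4 for Cdx2, 72.1 for Gata6, 75.3 for Thy1, 116.3 for Sox17 and 207.1 for Col1a1. The mesoderm marker Mesp1 was brighter, between 258.7 and 399.6. The fibroblast markers went opposite ways, with Thy1 at 31.5 in experiments 1 and 2 and 60.5 in experiment 3, and Col1a1 at 186.4 and 133.8. Both were called in limma's test of experiment 3 (adjusted p = 0.0193 and 0.0206). Pax6 and Zic1 reached no more than 158.1 and 185.1 in experiment 3, so signal level alone does not tell these lineages apart. These are averages over cultures, in which fewer cells of a type and less RNA per cell cannot be told apart.

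None of the 20 probe sets was called between GemKD and control in limma's moderated test. The lowest adjusted p among them was 1, and 0 of 20 had an unadjusted p under 0.05. Over all 31526 probe sets tested 1.1% had such an unadjusted p, and the fit called 0.00317%, a single probe set, that of Hprt. Gmnn, the knockdown target, was not called in this fit either, so an uncalled probe set may still differ. With the experiment as a block, which compares each GemKD culture with its own control, again 0 of 20 members passed (lowest adjusted p = 0.992), against 0.00952% of all probe sets. In that fit 2 of the 20 had an unadjusted p under 0.05, where 4.62% of all probe sets did, and both belonged to Kat2a. Log2 differences, taken as log2 of the signal plus 16, ran from -0.08 to 0.35 with a median of 0.05, against 0.01 over all probe sets. They were above 0 for 18 of 20 members and for 55% of all probe sets, and probe sets of the same gene are not independent. The direction was shared by all 3 experiments for 6 members, 4 higher and 2 lower, while 13.5% of all probe sets were higher and 10.5% lower in all 3.

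**Figure D1:**
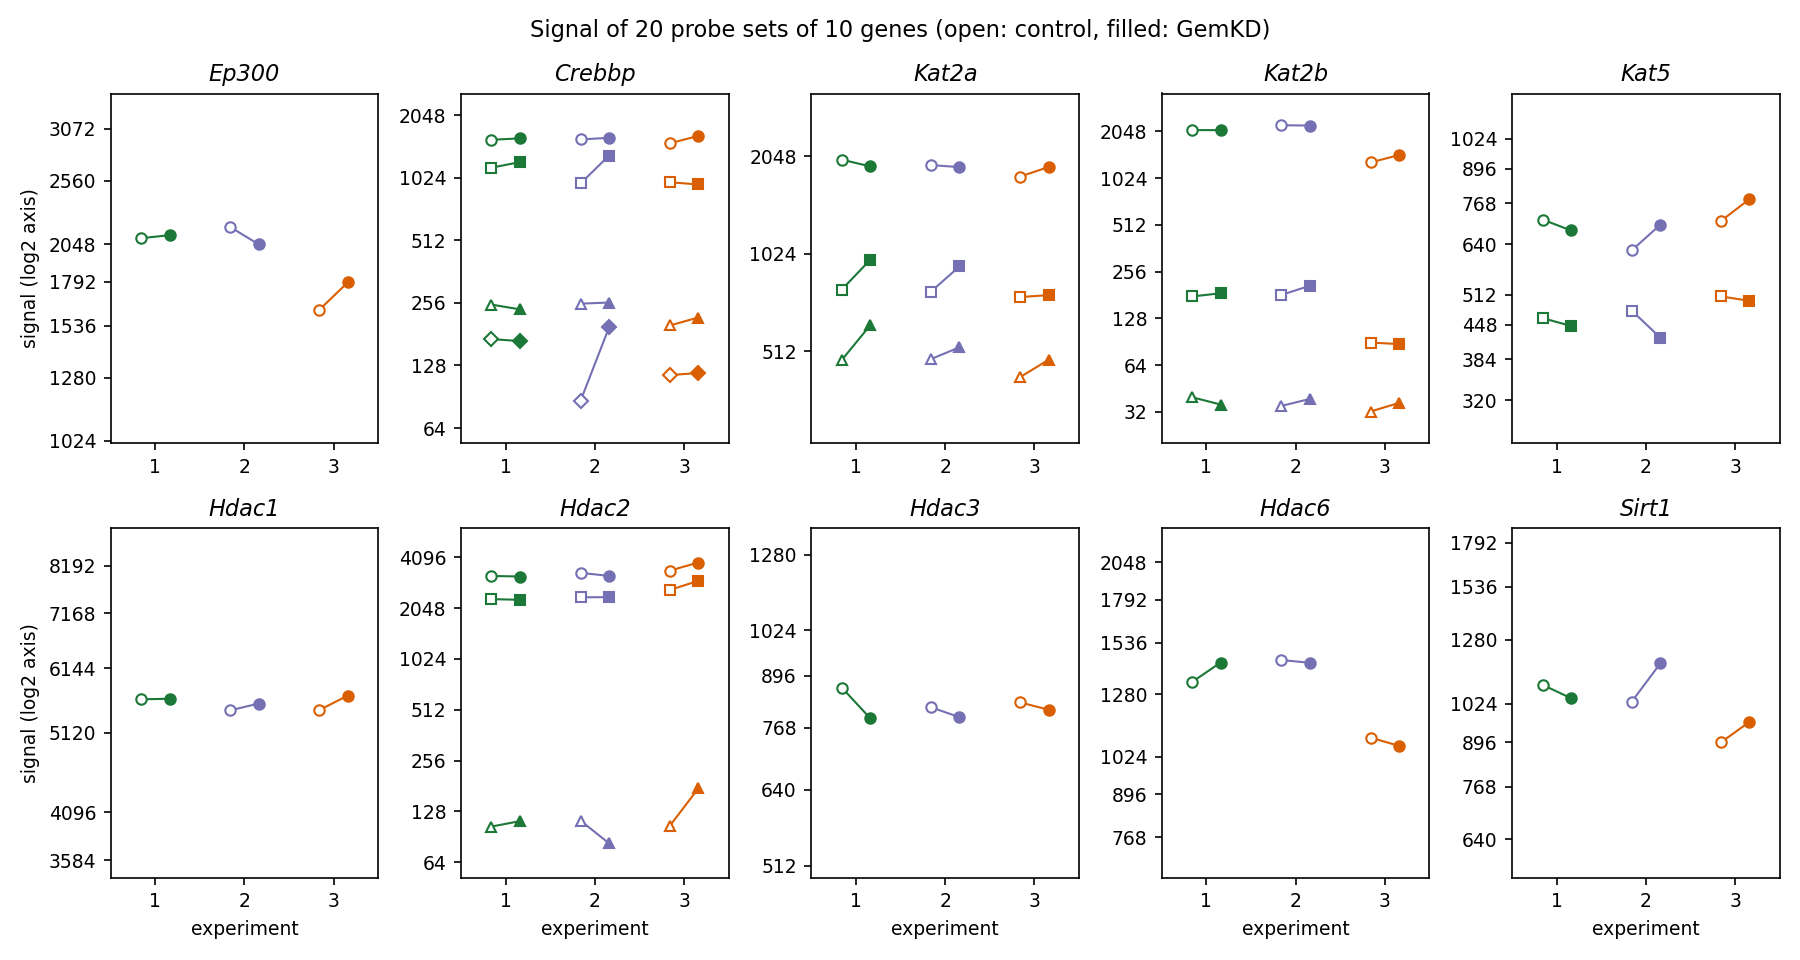
Signal of each probe set (vertical, log2 axis, a scale of its own in each panel) in the 3 experiments (horizontal), with 1 panel for each gene; open symbols are control arrays, filled symbols GemKD arrays, and each marker shape is 1 probe set, circles the brightest. The brighter probe sets of Kat2b and the probe set of Hdac6 are lower in experiment 3 in both arms, while Hdac1 lies between 5456 and 5688 on all 6 arrays.

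Ep300 and Crebbp encode p300 and CBP, large paralogous coactivators that acetylate histones at enhancers and promoters. The signal of Ep300 (1434765_at) was 2091, 2174 and 1625 in the controls of experiments 1, 2 and 3, and 2112, 2046 and 1790 in the matching GemKD cultures. The groups overlapped, and both low values came from experiment 3. The log2 difference was 0.02 (SE 0.12), and with the block its 95% interval ran from -0.10 to 0.15. The brightest probe set of Crebbp (1435224_at) read 1559, 1565 and 1500 in controls and 1585, 1595 and 1628 in GemKD. Here every GemKD array lay above every control array, by little. The same was true of 2.83% of all probe sets, and the log2 difference was 0.06 (SE 0.07, blocked interval -0.07 to 0.18).

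Other probe sets of Crebbp did not repeat that order. Probe set 1436983_at went from 961.4 to 1310 in experiment 2 alone (log2 ratios 0.09, 0.44 and -0.03 in experiments 1, 2 and 3). Probe set 1459804_at, the dimmest, went there from 86.5 to 195.3, with ratios of -0.03, 1.04 and 0.03. Its large mean difference of 0.35 (SE 0.26) was thus made by 1 experiment, the only 1 with shRNAmir 9. In that experiment the control array was low, while the other controls read 171.4 and 115.1 and the other GemKD arrays 167.7 and 117.7. Each arm there was a single array, so an effect of the hairpin cannot be told from a stray control value. A test of whether the response differed between the hairpins, added after seeing the data, gave this probe set an adjusted p of 0.13 (unadjusted 6.01e-04), the lowest of the 20. That test called 0 members and 0.336% of all probe sets. In the same fit the fall of Gmnn itself was smaller in experiment 2, by 0.59 on the log2 scale. The remaining Crebbp probe set, 1434633_at, had a log2 difference of 0.02 (SE 0.14) between GemKD and control.

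Kat2a (GCN5) and Kat2b (PCAF) are alternative catalytic subunits of the coactivator complexes SAGA and ATAC. The brightest probe set of Kat2a (1426783_at) gave 2002, 1925 and 1775 in controls and 1908, 1898 and 1899 in GemKD, a log2 difference of 0.003 (SE 0.07). Probe set 1422972_s_at read 794.7, 783.1 and 753.6 in controls against 982.7, 937.2 and 764.3 in GemKD. Probe set 1422971_at read 481.8, 485 and 426.7 against 617.1, 527.5 and 482.8. These dimmer sets were higher in GemKD in all 3 experiments, by 0.19 (SE 0.11) and 0.21 (SE 0.12), and with the block their 95% intervals stayed above 0 (0.02 to 0.36 and 0.03 to 0.40). They are the members with an unadjusted blocked p under 0.05 (0.0298 and 0.0284), and the adjusted p was 0.992 for both. The brightest set had a blocked interval of -0.12 to 0.12, which reaches no further than a 1.09-fold rise. It overlaps the intervals of the dimmer sets, and whether the sets differ from each other was not tested. Which transcripts each of the 3 sets detects was not analysed here.

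Kat2b, by its brightest probe set 1434037_s_at, read 2086, 2242 and 1291 in controls and 2084, 2230 and 1441 in GemKD. In experiments 1 and 2 the arms differed by under 0.01 on the log2 scale (-0.002 and -0.007), and in experiment 3 by 0.16. The mean log2 difference was 0.05 (SE 0.23), with a blocked interval of -0.07 to 0.17. The SE fell to 0.06 with the block, because most of the spread of Kat2b lay between experiments. Probe set 1450821_at had 0.07 and the dim 1457809_at, at a mean signal near 36, had 0.04.

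Kat5 encodes TIP60, which acetylates histones H4 and H2A and the DNA damage kinase ATM. Probe set 1433980_at read 714.7, 623 and 710 in controls and 680.8, 698.2 and 782.7 in GemKD (log2 difference 0.08, SE 0.11). Probe set 1433981_s_at went the other way, with 461, 476.7 and 507.7 in controls and 445.1, 422.6 and 497.8 in GemKD (-0.08, SE 0.11). It was lower in each experiment, yet the groups overlapped, and the blocked interval of -0.26 to 0.10 held 0.

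The class I deacetylases Hdac1 and Hdac2 are close paralogs that share the Sin3, NuRD and CoREST corepressor complexes, and Hdac3 works in the NCoR and SMRT complexes. Hdac1 (1448246_at) was the steadiest member, with 5628, 5456 and 5461 in controls and 5637, 5562 and 5688 in GemKD. Its highest array was 1.04 times its lowest, and 1.26% of the 9389 probe sets with a mean signal above 500 had a smaller ratio. The log2 difference of 0.03 (SE 0.04) had a blocked interval of -0.04 to 0.10, which reaches no further than a 1.07-fold change. Hdac2, by probe set 1445684_s_at, read 3174, 3312 and 3411 in controls and 3151, 3176 and 3812 in GemKD (log2 difference 0.03, SE 0.08). Only the GemKD culture of experiment 3 stood out, and probe sets 1449080_at (0.06) and 1439704_at (0.12) were also highest there, at 2970 and 174.9.

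Hdac3 (1426437_s_at) read 865.2, 816.4 and 828.2 in controls and 790.1, 792.8 and 810.3 in GemKD. All 3 GemKD arrays lay below all controls, as for 2.27% of all probe sets, with a log2 difference of -0.07 (SE 0.08) and a blocked interval of -0.22 to 0.09. Hdac6, a mainly cytoplasmic enzyme that deacetylates tubulin, read 1336, 1445 and 1096 in controls and 1432, 1431 and 1064 in GemKD (1448928_at, 0.01, SE 0.15). Sirt1, an NAD-dependent deacetylase of histones and p53, read 1094, 1031 and 895.5 in controls and 1044, 1178 and 961.7 in GemKD (1418640_at, 0.07, SE 0.11). Over the brightest probe sets of the 10 genes the blocked intervals reached no further than a 1.19-fold rise (Kat5) and a 1.16-fold fall (Hdac3).

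**Figure D2:**
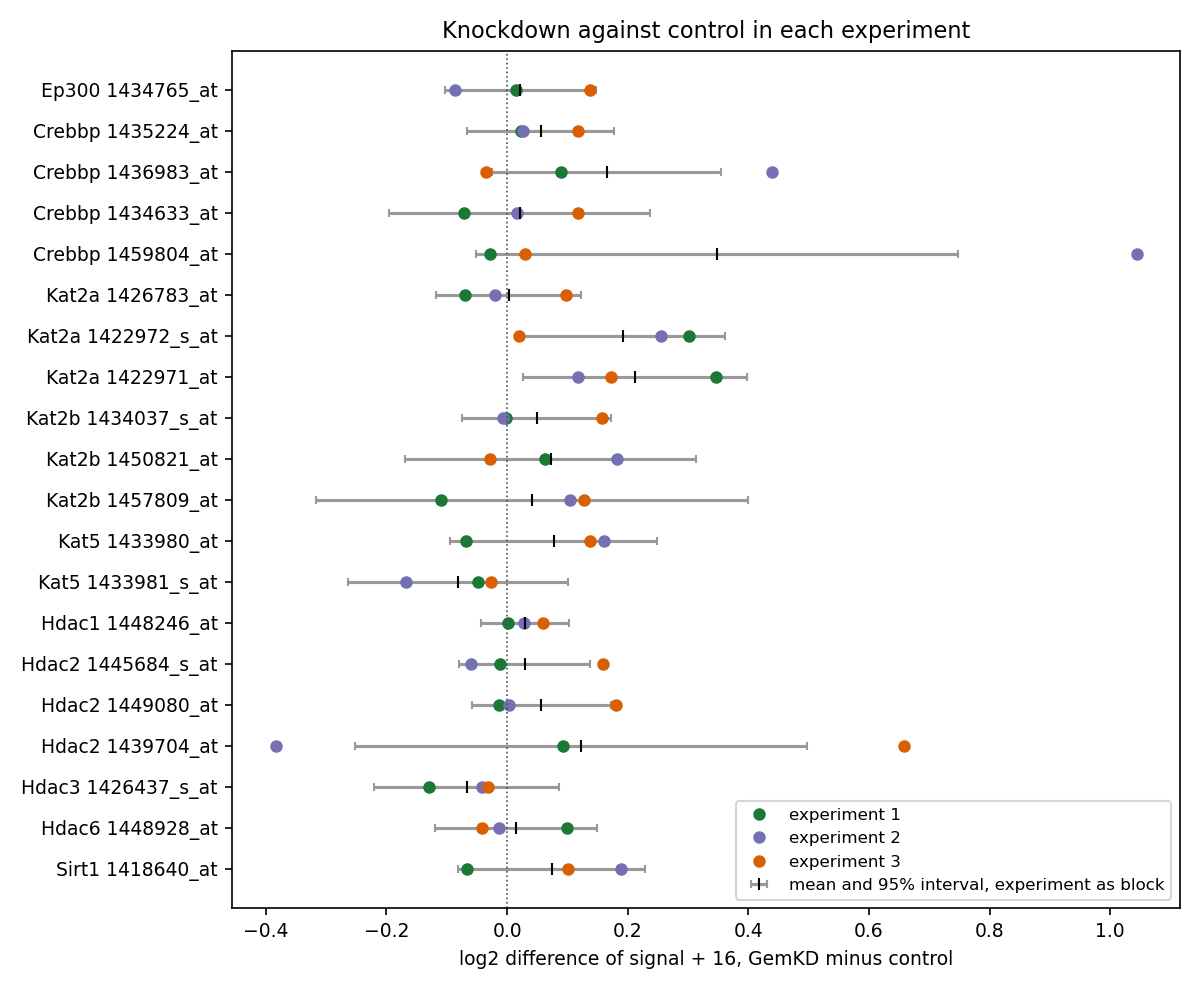
Log2 difference of the signal plus 16 between GemKD and control (horizontal) for each of the 20 probe sets (vertical), with a coloured point for each experiment, and a black tick with a grey bar for the mean and its 95% interval with the experiment as a block. Most points lie near 0, the 2 dimmer Kat2a sets lie above 0 in all experiments, and the largest single ratio, 1.04, belongs to Crebbp 1459804_at in experiment 2.

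The second comparison set both arrays of experiment 3 beside the 4 arrays of experiments 1 and 2, with GemKD or control as a covariate. In value 13 of the 20 members were lower in experiment 3, as were 51.5% of all probe sets. The test called 7 of the 20, 5 lower and 2 higher in experiment 3, in 5 of the 10 genes. Kat2b, Hdac6, Ep300 and Sirt1 were lower and Hdac2 was higher. Experiment 3 differed widely, however, and 26.4% of all probe sets passed in this fit (15.9% lower and 10.6% higher). The members' share of 35% is not far from that, and their median absolute log2 difference of 0.21 was near that of all probe sets, 0.19. Their signed median was -0.14, against -0.01 over all probe sets. Each of the 5 genes was called in its brightest probe set, as were 30.7% of all genes tested. Experiment 1 against experiment 2, tested in the same fit, called 0 of 20 members (lowest adjusted p = 1) and 0.0349% of all probe sets, and 0 members had an unadjusted p under 0.05 there. These p-values weigh the difference against the spread between arrays within experiments. Each experiment was done once, so they do not say how often a further experiment would differ.

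Kat2b differed most. Its brightest probe set averaged 2161 in experiments 1 and 2 and 1366 in experiment 3, a log2 difference of -0.66 (SE 0.06, 95% interval -0.79 to -0.53, adjusted p = 1.77e-05). On the signal itself this was 63.2% of the level in the other experiments. A second probe set, 1450821_at, read 177.2 and 181.2 in the controls and 185.8 and 207.7 in GemKD of experiments 1 and 2, and 89.5 and 87.5 in experiment 3. There the difference was -0.96 (SE 0.12, adjusted p = 1.51e-04), so both brighter sets fell and neither overlapped with the other arrays. The dim 1457809_at had -0.08 (SE 0.17). The paralog Kat2a differed less, with -0.07 (SE 0.06, interval -0.20 to 0.05) in its brightest set and -0.19 and -0.20 in the others, none past the threshold (adjusted p = 0.389, 0.106 and 0.119). Whether Kat2b differed from Kat2a in this shift was not tested.

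Promoter sequences are shown for this pair of paralogs, of which only Kat2b was called, and for Hdac2, the member gene that was called higher. RefSeq windows (GRCm38.p6) were matched for 8 of the 10 genes. Printed are the 250 bases before the RefSeq start, 5′ to 3′ on the strand of the gene, with capitals marking a CCAAT box (CCAAT or its reverse complement ATTGG) or a GC box (GGGCGG or CCGCCC). The Kat2b window is the more upstream of 2 in RefSeq.
Kat2a: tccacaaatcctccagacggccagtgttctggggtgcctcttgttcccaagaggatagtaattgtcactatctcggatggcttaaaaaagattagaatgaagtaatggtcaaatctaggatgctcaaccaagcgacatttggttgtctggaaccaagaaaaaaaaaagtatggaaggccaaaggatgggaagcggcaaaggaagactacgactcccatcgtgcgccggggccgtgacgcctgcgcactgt
Kat2b: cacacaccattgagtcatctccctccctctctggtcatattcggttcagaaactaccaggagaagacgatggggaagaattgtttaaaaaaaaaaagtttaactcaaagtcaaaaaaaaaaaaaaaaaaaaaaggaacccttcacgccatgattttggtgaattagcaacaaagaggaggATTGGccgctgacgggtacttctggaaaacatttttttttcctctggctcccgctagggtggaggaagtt
Hdac2: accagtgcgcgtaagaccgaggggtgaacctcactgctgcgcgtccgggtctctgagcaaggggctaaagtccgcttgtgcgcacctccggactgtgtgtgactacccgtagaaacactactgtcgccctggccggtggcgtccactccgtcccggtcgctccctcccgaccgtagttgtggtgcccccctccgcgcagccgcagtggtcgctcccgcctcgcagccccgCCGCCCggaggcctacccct
The windows lie at chr11:100712468-100712717 (minus strand) for Kat2a, chr17:53566721-53566970 (plus strand) for Kat2b and chr10:36974294-36974543 (plus strand) for Hdac2. The printed Kat2b window held 1 CCAAT box and no GC box, while the other Kat2b window held neither and had 5 CpG. Hdac2 held 1 GC box and no CCAAT box, and Kat2a neither. Of all 32851 windows of this length 33.8% held a CCAAT box and 32.7% a GC box. A TATA box (TATAAA or its reverse complement TTTATA), found in 12.4%, was in none of the member windows. The CpG count was 6 in the printed Kat2b window, 11 in Kat2a and 27 in Hdac2, against a median of 6 over all windows. Among the other matched members it ran from 15 in a Kat5 window to 44 in Crebbp. These matches describe the letters in the windows and do not show binding.

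Of the other members lower in experiment 3, Hdac6 averaged 1411 in experiments 1 and 2 and 1080 in experiment 3. Its log2 difference was -0.38 (SE 0.07, interval -0.52 to -0.24, adjusted p = 0.00144). Ep300 averaged 2106 and 1707, with -0.30 (SE 0.06, adjusted p = 0.00382). Without the intensity trend in the variance Ep300 no longer passed (adjusted p = 0.0872). Sirt1 averaged 1087 and 928.6, with -0.22 (SE 0.08, adjusted p = 0.0479), a call at the edge that was lost in 9 of 16 other settings. Among these, it was lost without the control array of experiment 1, the GemKD array of experiment 2 or either array of experiment 3 (adjusted p up to 0.218). In each of these 3 genes both arrays of experiment 3 lay below all 4 others, as for 25.7% of all probe sets. Crebbp, the paralog of Ep300, had -0.01 (interval -0.14 to 0.12) in its brightest set and -0.25, -0.25 and -0.32 in the 3 others, none past the threshold.

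Hdac2 was the gene that rose. Probe set 1449080_at averaged 2339 in experiments 1 and 2 and 2795 in experiment 3, a log2 difference of 0.25 (SE 0.06, adjusted p = 0.00646). The brighter 1445684_s_at averaged 3203 and 3612, with 0.17 (SE 0.05, adjusted p = 0.0326). Both arrays of experiment 3 were above all others in both sets, as for 20.8% of all probe sets. The GemKD array of experiment 3 carried much of this, and without it the differences were 0.16 (adjusted p = 0.0994) and 0.07 (0.407). The brighter set was called in 10 of 16 other settings, and also lost its call without the GemKD array of experiment 1 or 2 (adjusted p = 0.0876 and 0.0929), with no filter (0.0766), with no intensity trend (0.246) and against experiment 2 alone (0.102). Probe set 1449080_at was called in 13 of 15 and lost its call with no intensity trend too (0.119). Without the GemKD array of experiment 3 the members called were 4, all lower. Hdac1 had 0.001 (interval -0.08 to 0.08) and Hdac3 0.01 (interval -0.16 to 0.17). Kat5 was higher by 0.13 and 0.15 in its 2 sets, without passing (adjusted p = 0.267 and 0.233). Nanog, Sox1, Pax6 and Fgf5 moved with the same arrays, by -2.61, -2.04, -2.25 and 2.17, and their part in these differences was not tested.

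**Figure D3:**
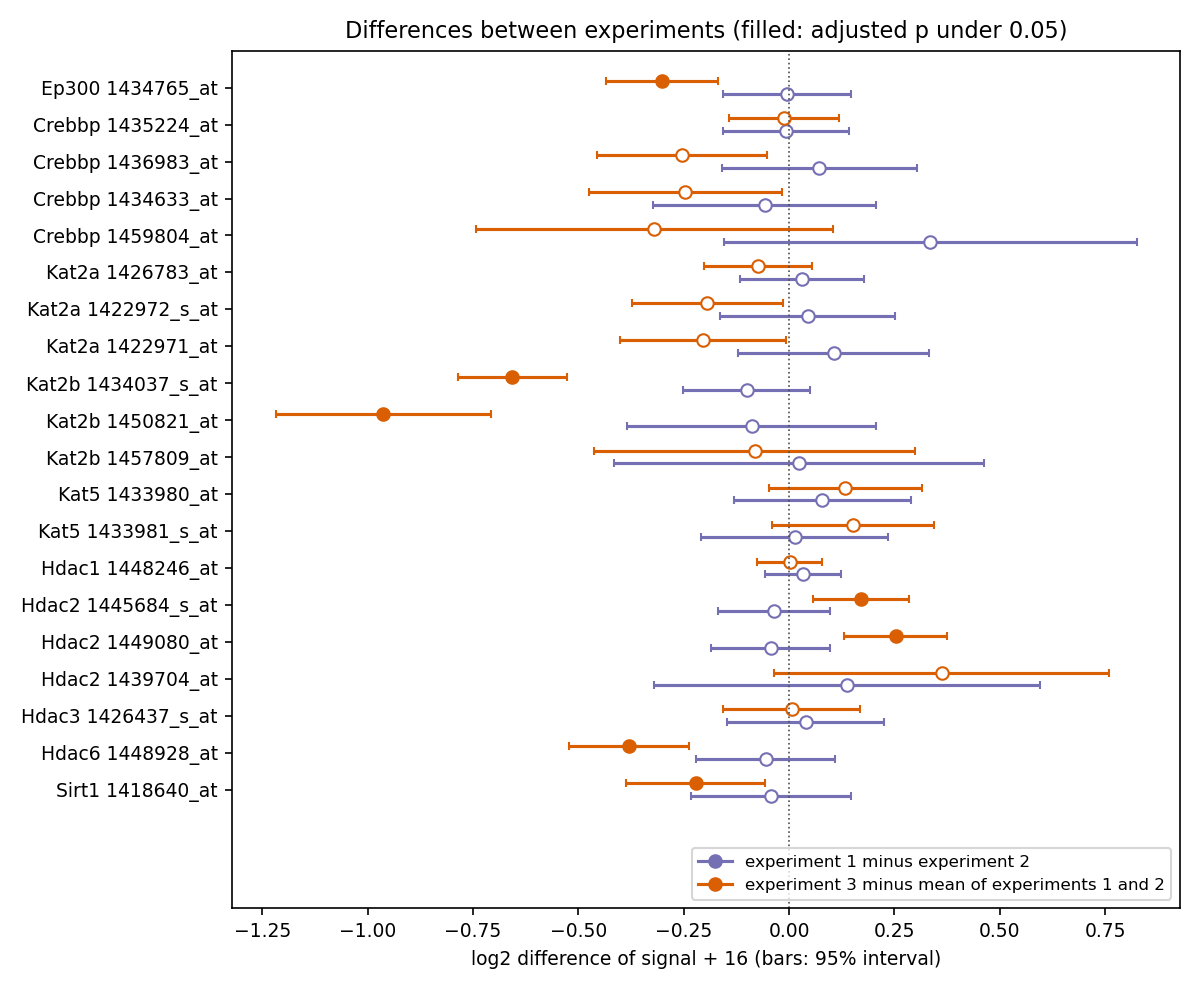
Log2 difference of the signal plus 16 (horizontal) for each probe set (vertical), for experiment 3 minus the mean of experiments 1 and 2 (orange) and experiment 1 minus experiment 2 (purple); bars are 95% intervals and filled points have an adjusted p under 0.05. Filled points are found in orange only, at -0.66 and -0.96 for Kat2b, -0.38 for Hdac6, -0.30 for Ep300, -0.22 for Sirt1 and 0.17 and 0.25 for Hdac2.

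Whether the knockdown response of experiment 3 differed from that of experiments 1 and 2 was tested by an interaction term with 1 residual degree of freedom. It called 0 of 20 members (lowest adjusted p = 0.335) and 0.00634% of all probe sets. An unadjusted p under 0.05 was reached by 2 members and by 11% of all probe sets. Both were of Hdac2, with the dim 1439704_at going from 104.9 to 174.9 in experiment 3, and from 104 to 112 and 112.8 to 82.7 in experiments 1 and 2. In 1445684_s_at the log2 ratios were -0.01, -0.06 and 0.16.

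Genes around these enzymes were then described through 7 lists, each gene by its brightest probe set. Of 155 genes 147 had a probe set with 1 symbol and 146 were tested. None passed between GemKD and control with or without the block, as 0.00705% and 0.0141% of the 14185 genes did. In experiment 3, 49 of the 146 passed, 13 higher and 36 lower. That is 33.6%, beside 30.7% of all genes tested, and the median log2 difference was -0.10 against -0.04. Of all genes tested 10.6% were called higher and 20.1% lower, so more lower than higher calls are found array-wide as well.

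Among 21 other acetyltransferases the median knockdown difference was -0.02, against 0.002 over all genes. Kat7 (HBO1), which acetylates histone H4 at replication origins with Cdt1 in human cells, averaged 1890 in controls and 2087 in GemKD, with log2 ratios of 0.15, 0.15 and 0.12 in the 3 experiments (blocked adjusted p = 0.992). Kat7 was lower in experiment 3 by -0.55 (adjusted p = 3.10e-05), as were the nuclear receptor coactivator Ncoa1 (-0.75) and Kat6b (-0.52), and for each of these 3 a second probe set fell too. Naa60 was the 1 gene of this list called higher by its brightest set (0.30), and 4 were called lower. Ncoa3 was not called in its brightest set (-0.19), but a dimmer Ncoa3 set had -1.22 (adjusted p = 3.85e-06). Clock, a circadian factor with acetyltransferase activity, had the largest knockdown difference (0.26), with 0.10, 0.25 and -0.42 in dimmer probe sets.

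Of 12 other deacetylases 5 were lower in experiment 3 and 0 higher, 41.7% called, with a median of -0.10. The class IIa enzyme Hdac5 averaged 466.7 and 291.8 (-0.65), the tubulin deacetylase Sirt2 273.3 and 172.3 (-0.62) and the mitochondrial desuccinylase Sirt5 269.9 and 203.6 (-0.38, against 0.09 in its next probe set). Between GemKD and control Hdac11 had the largest difference of the list, -0.31, with 125.4 in controls and 98.4 in GemKD and a lower value in all 3 experiments. A second probe set of Hdac11, at a mean signal of 103.3, had 0.16. Hdac10 had -0.16 and Hdac5 0.18, neither past the threshold.

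Subunits of the Sin3, NuRD, CoREST and NCoR complexes, which carry Hdac1, Hdac2 and Hdac3, gave 12 genes lower and 2 higher of 35 in experiment 3 (40% called, median -0.13). Phf21a, the CoREST subunit that binds unmodified histone H3, averaged 2673 and 1583 (-0.75), the NuRD subunit Mta3 2520 and 1738 (-0.53) and Sap30 of Sin3 3345 and 2481 (-0.43). The CoREST scaffold Rcor2 was lower as well (-0.42). Their knockdown differences were -0.02, 0.05, 0.03 and 0.06. Chd4, the NuRD remodeller, had 0.32, but this came from experiment 2 (log2 ratios 0.02, 1.04 and -0.10). Its other probe sets had 0.02 and 0.34. In the brightest Chd4 set the control array of experiment 2 was low, at 803.9. The other controls read 1615 and 1637, and the GemKD arrays 1633, 1669 and 1525. None of these genes passed between GemKD and control. In the test of the response between hairpins, added after seeing the data, the brightest Chd4 set did pass (1.08 on the log2 scale). That difference rests on the low control array, which had no Dox. Each arm of experiment 2 was a single array, so an effect of the hairpin cannot be told from a stray control value.

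SAGA and ATAC subunits, the partners of Kat2a and Kat2b, gave 3 lower and 1 higher of 23 (17.4% called, median -0.05). Taf6l (-0.74) and Supt3 (-0.43) were lower and Yeats2 was higher (0.33, with 0.15 in a dimmer set). The TIP60 complex of Kat5 gave 3 higher and 1 lower of 16 (25%), with Meaf6 at 0.29 and Epc1 at -0.20. Dimmer sets did not repeat this, with -0.08 for Meaf6 and 0.66 for Epc1. Knockdown differences of the TIP60 complex lay between -0.04 and 0.11. The partners of the MYST family acetyltransferases gave 6 higher and 3 lower of 18 (50%). Jade2, a scaffold of the HBO1 complex, averaged 259.2 and 526 (0.996, adjusted p = 5.01e-05), and a dim second set had 0. Jade2 also had the largest knockdown difference of that list, -0.36, with log2 ratios of -0.40, -0.50 and -0.17 (blocked adjusted p = 0.992). Brd1 was lower in experiment 3 (-0.46, with 0.001 in a second set).

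Readers of acetyl-lysine gave 8 lower and 1 higher of 23 in experiment 3 (39.1%, median -0.14), among them the remodeller subunit Cecr2 (-0.45), Atad2b (-0.39) and Phip (-0.34). Other probe sets did not all share this, since a dim Atad2b set had 0.43 (adjusted p = 0.0969), the second Cecr2 set -0.17 (0.289), and those of Phip ran from -0.32 to 0.11. The testis-enriched reader Brdt had the largest knockdown difference of all lists, 1.07, at dim signals of 48.2 and 89.5 (blocked adjusted p = 0.974), and its 2 other probe sets had 0.21 and -0.003. Smarca2, Baz2b and Brwd3 had knockdown differences of 0.12, 0.12 and -0.12. Their other probe sets had -0.04 for Smarca2, 0.265 to 0.321 for Baz2b, and -0.17 and 0.10 for Brwd3.

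**Figure D4:**
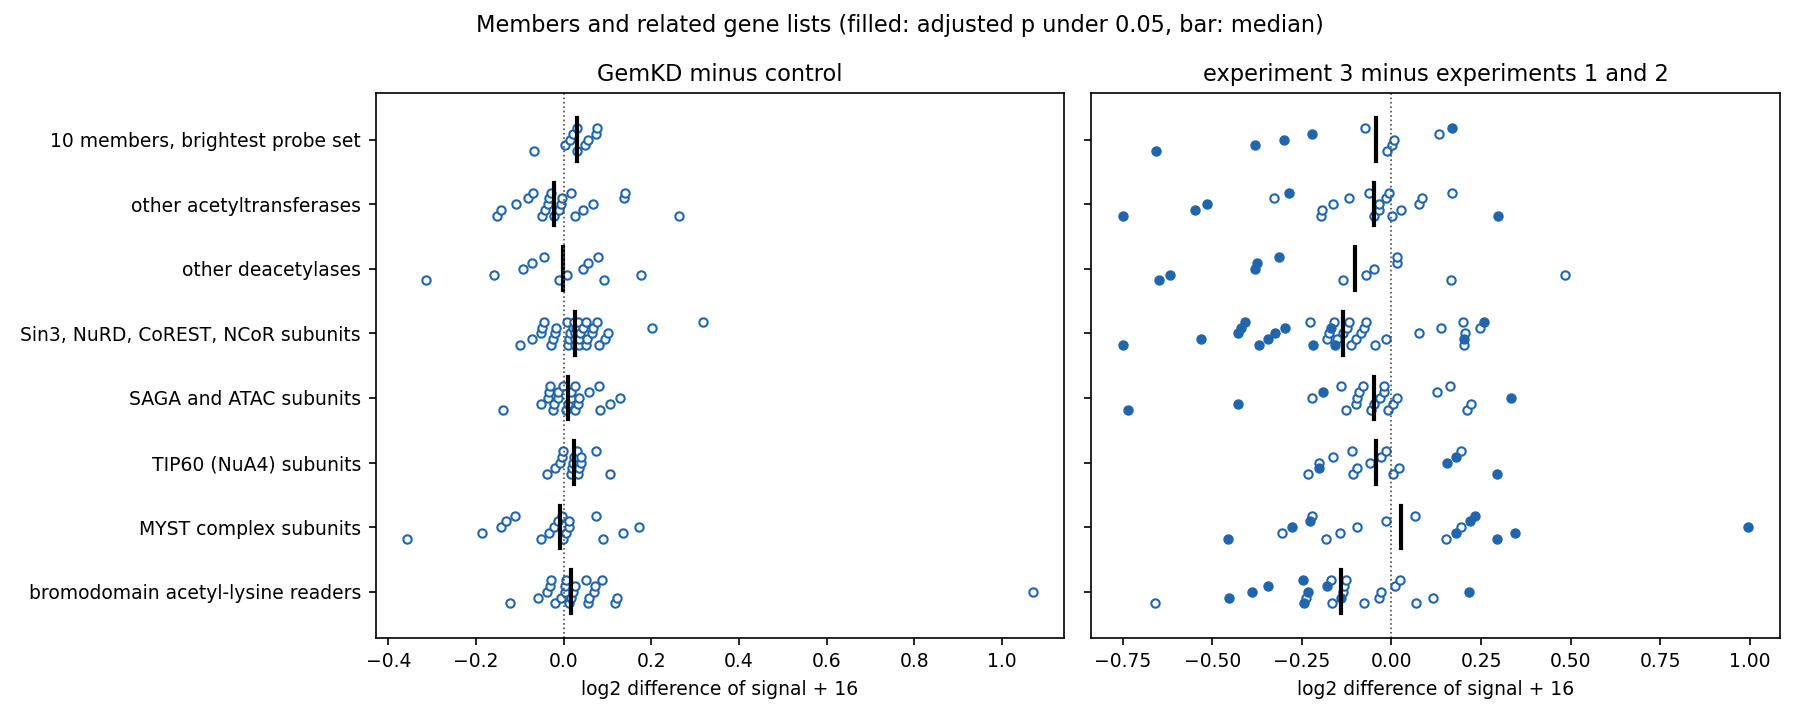
Log2 differences of the signal plus 16 (horizontal) for GemKD minus control (left) and experiment 3 minus experiments 1 and 2 (right), with 1 point for each gene by its brightest probe set, for the 10 members and the 7 lists (vertical); filled points have an adjusted p under 0.05, black bars are medians, and points are spread vertically within a list for legibility. No point is filled on the left, and on the right both directions are seen, from -0.75 for Ncoa1 and Phf21a to 0.996 for Jade2.

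For the 3 members with the largest shift in experiment 3 by their brightest probe set, the genes with the most similar pattern over the 6 arrays were sought among the other 14184 tested genes by Pearson's r. For Kat2b these were Manba (r = 0.9996), Mbd1 (0.9991) and Erc1 (0.9983). For Hdac6 they were Sinhcaf (0.9997), Hsf2bp (0.9987) and Prc1 (0.9983), and for Ep300 they were 4930526I15Rik (0.9997), Akap10 (0.9982) and Ezh1 (0.9974). Manba shared the shape of Kat2b but not the size, averaging 419.6 in experiments 1 and 2 and 102.7 in experiment 3 (-1.88). Sinhcaf, a Sin3 complex component, averaged 5654 and 4435 (-0.35), close to the shift of Hdac6. Other probe sets of these genes did not all share the shift in experiment 3. Those of Erc1 had 0.01 and -0.11, of Hsf2bp 0.003, of Ezh1 0.25 and -0.01 and of Mbd1 -0.31 and 0.43. Those of Akap10 (-0.205, -0.418 and -0.32) and Prc1 (-0.118) were lower too. With 6 arrays, 2 of which stand apart, and the best of many genes picked, such values of r are a description only.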

How the data were processed

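The authors deposited 1 linear intensity per probe set and array, measured from biotin-labelled total RNA, per the labels' protocols. How these values were background-corrected and normalized, and with which software, is not given in the sources used here. All arrays lay on a common scale and were used as they stand. Precision is limited by having 6 arrays. Depth has no meaning for intensities.

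Gene symbols came from GEO's annotation of the platform. Of 45037, 34945 had 1 gene symbol (18193 genes), 932 several and 9160 none. All 20 member probe sets matched a RefSeq gene by Entrez identifier, and 0 symbols changed. Values were tested as log2 of signal plus 16, for the 31526 probe sets with a mean signal above the 30th percentile, by the moderated test of limma 3.58.1 (R 4.3.3), two-sided, with the variance trended on intensity. A probe set was called at a Benjamini-Hochberg adjusted p under 0.05 over all of them. Fold changes on this scale understate changes of dim probe sets. GemKD and control were compared without a block, and alternatively with a term for the experiment. The label's experiment number pairs a culture with its own control, and deviations from the group means correlated within experiments 1, 2 and 3 with 0.431, 0.38 and 0.656. Experiments were compared in a fit with treatment as a covariate and 2 residual degrees of freedom.

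Genes named were all members, Gmnn, fixed markers, up to 4 genes of each list by size of either difference, and the 3 genes most like each of 3 members. Members and lists were chosen with earlier results of these data known. Other named genes were chosen after their values were seen. The tests were tried on simulated data in which only a small part of the probe sets differed between experiments. The wide differences between experiments in these arrays were not simulated, so the trial does not show how the tests fare with them. Alternatives were the block, quantile normalization, no filter or the 50th percentile, a pseudocount of 1 or 64, 1 probe set a gene, no intensity trend, each array or experiment left out, and experiment 3 against 1 or 2 alone.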

Additional observations from a re-analysis of the deposited data

How the results depend on the processing

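No member passed between GemKD and control under any of the 18 alternatives. With the replicate block the number of probe sets called went from 1 to 3, and without the intensity trend to 0. Leaving out arrays or experiments gave 0 to 13, the 13 being the block with experiments 1 and 2 alone, added after seeing the data. For experiment 3 the probe sets called went from 8337 to 4822 with 1 probe set a gene, where fewer are tested, and to 4261 without the trend (members from 7 to 3). Left-out arrays gave 4 to 10 members, 4 without the GemKD array and 9 without the control array of experiment 3, and 10 without the control of experiment 2. Crebbp 1436983_at and Hdac2 1439704_at passed without the control array of experiment 2 or of experiment 3, Crebbp 1459804_at without the former and Kat2a 1422972_s_at without the latter. Kat2b (both brighter sets) and Hdac6 passed under every alternative that tested them. Against experiment 1 alone, with the same hairpin, 6 members passed, and against experiment 2 alone 5. Experiment 1 against 2 called 11 probe sets, 6 without a filter, 2 without the trend and 11 to 243 with arrays left out, when 0 to 1 members passed (Crebbp 1459804_at, without the GemKD array of experiment 2, which gave the 243). The interaction called 2 probe sets, and 1 with a pseudocount of 1.

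Signs turned only for differences that had not passed. Quantile normalization turned the GemKD difference of Crebbp 1434633_at to -0.009 and of Kat2a 1426783_at to -0.018, and that of Crebbp 1435224_at in experiment 3 to 0.026. In experiments 1 and 2 alone with the block, GemKD differences were -0.036 for Ep300, -0.027 for Crebbp 1434633_at, -0.045 for Kat2a 1426783_at, -0.005 and -0.002 for Kat2b 1434037_s_at and 1457809_at, and -0.035 and -0.005 for Hdac2 1445684_s_at and 1449080_at. Against experiment 1 alone Hdac1 had -0.015 and Hdac3 -0.013. With arrays left out, GemKD differences ranged from -0.108 to 0.101 for Ep300, -0.085 to 0.079 for Crebbp 1434633_at, -0.046 to 0.041 for Kat2a 1426783_at, -0.197 to 0.241, -0.224 to 0.418 and -0.008 to 0.116 for Kat2b 1434037_s_at, 1450821_at and 1457809_at, -0.06 to 0.077, -0.058 to 0.127 and -0.146 to 0.375 for Hdac2 1445684_s_at, 1449080_at and 1439704_at, -0.098 to 0.155 for Hdac6 and -0.006 to 0.145 for Sirt1. For experiment 3 they ranged from -0.058 to 0.034 for Crebbp 1435224_at, -0.021 to 0.023 for Hdac1, -0.04 to 0.764 for Hdac2 1439704_at and -0.021 to 0.033 for Hdac3. For experiment 1 against 2 they ranged from -0.087 to 0.077 for Ep300, -0.032 to 0.017 for Crebbp, -0.022 to 0.085 for Kat2a, -0.03 to 0.188 for Kat5, -0.104 to 0.031 for Hdac2, -0.008 to 0.085 for Hdac3, -0.118 to 0.008 for Hdac6 and -0.15 to 0.062 for Sirt1. The cause was not tested. Dim probe sets (Kat2b 1457809_at, Hdac2 1439704_at, Crebbp 1459804_at) limit what can be read from them.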
